A study of Homo sapiens with 48 samples.

Results

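The interleukin-6 receptor IL6R and 9 other genes of JAK-STAT signalling are described here in uveal melanoma cells, 10 of the 58870 genes counted in 48 RNA-seq libraries. The set comprises the receptor genes IL6R, IL6ST, LIFR and OSMR, the kinase JAK1, the transcription factor STAT3, and the feedback inhibitors SOCS1, SOCS2, SOCS3 and CISH. IL6R was chosen because it was lower after 4 h of FHT-1015 in each of 3 cell lines, so that fall is given as values with no test. The other 9 genes were chosen by name for their place in the same pathway, with earlier results of these data known. All 10 genes had enough reads to be tested in every comparison.

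The cells were the established human uveal melanoma lines 92-1, MEL202 and MP41, each labelled wild type in genotype. Each line received FHT-1015, an inhibitor of both SMARCA4 and SMARCA2, the ATPases of the BAF (SWI/SNF) chromatin remodelling complex, or DMSO, the solvent control, for 4 h or 24 h. The line 92-1 was also treated for 4 h or 24 h with IDE196, which inhibits protein kinase C, beside DMSO libraries made for that drug. Each of the 16 groups held 3 libraries labelled as biological replicates; the labels used here give no doses and do not say whether replicates were separate cultures, so p-values measure the spread between these libraries. Poly-A RNA was sequenced, with 11394088 to 32317711 reads in genes per library. All 7 melanocyte markers examined had reads in every line, and their summed level in 92-1 was 4854 to 17835 CPM (counts of a gene relative to the scaled total of its library) with FHT-1015 and 18994 to 23060 CPM with DMSO. In MEL202 it was 2748 to 9293 against 7880 to 9597 CPM, and in MP41 5369 to 13564 against 11635 to 15570 CPM. The summed fibroblast markers ran from 3.29 to 12.5 CPM with FHT-1015 against 2.61 to 4.18 CPM with DMSO in 92-1, from 8.28 to 41.4 against 6.62 to 8.21 CPM in MEL202, and from 22.8 to 40.9 against 19.6 to 43.8 CPM in MP41. The summed leukocyte markers reached at most 6.37 CPM, the endothelial markers 4.30 CPM and the epithelial markers 25.0 CPM in any library. The share of gene reads from mitochondrial genes also moved with the drugs at 24 h. It ran from 8.21 to 9.55% with FHT-1015 against 7.07 to 7.43% with DMSO in 92-1, from 3.56 to 5.96% against 1.31 to 3.42% in MP41, and from 6.66 to 7.74% with IDE196 against 3.79 to 5.29%, ranges that do not overlap, and from 5.36 to 7.77% against 3.32 to 5.74% in MEL202, where they do. The part of these markers and of the mitochondrial share in the results below was not tested. One MEL202 library (FHT-1015, 4 h, replicate 2) had 17592 genes with a read and a mean correlation of 0.948 with its group, the lowest there. Among the MP41 DMSO libraries of 24 h, replicates 2 and 3 had similarly low mean correlations with their group (0.967 and 0.968, against 0.978 for replicate 1), and replicate 2 had the fewest genes with a read (20353). The labels do not show which of these libraries is unusual. Fewer cells of a kind and less RNA per cell cannot be told apart in such bulk libraries. Replicates varied more in MEL202 (biological coefficient of variation 0.294) and MP41 (0.217) than in 92-1 (0.117 with FHT-1015 and 0.112 with IDE196).

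Interleukin-6 binds its receptor, the product of IL6R, and the complex recruits gp130, the signalling chain encoded by IL6ST. The LIF receptor (LIFR) and the oncostatin M receptor (OSMR) pair with gp130 as well. Receptor-bound JAK kinases such as JAK1 then phosphorylate STAT3, which enters the nucleus and switches on target genes. SOCS proteins and CISH are products of STAT target genes that bind receptors or JAKs and dampen the signal, so their transcripts are often read as a record of recent JAK-STAT activity. CISH and SOCS2 are best known as targets of STAT5, and SOCS3 as a target of STAT3.

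The DNA before the start of IL6R and CISH is shown because these genes fell together in the results below. The windows are taken from RefSeq on GRCh38.p14 and stop before the transcribed bases of the GENCODE 29 gene models. They are written 5′ to 3′ on the gene's own strand. Capitals mark matches to TTCNNNGAA, the palindromic STAT motif, and to ACAAAG, a SOX core motif, searched on both strands; CACGTG, the E-box bound by MITF, was searched too. No match overlapped another.
IL6R, chr1:154405093-154405192, plus strand: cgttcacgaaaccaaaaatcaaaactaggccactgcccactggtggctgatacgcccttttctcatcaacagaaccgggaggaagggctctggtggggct
CISH, chr3:50611832-50612024, minus strand: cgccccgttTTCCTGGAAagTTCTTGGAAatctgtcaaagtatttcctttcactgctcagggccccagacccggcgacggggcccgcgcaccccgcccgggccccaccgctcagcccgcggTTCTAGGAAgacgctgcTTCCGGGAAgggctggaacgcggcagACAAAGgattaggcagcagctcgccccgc
The CISH window held 4 STAT matches, TTCCTGGAA, TTCTTGGAA, TTCTAGGAA and TTCCGGGAA. Over the full 250 bases before the RefSeq starts, 6.6% of 35116 windows held at least 1 STAT match and 5 of them (0.0142%) held 4 or more, a count chosen after CISH was seen. The IL6R window held none of the 3 motifs. RefSeq windows were found for 9 of the 10 genes (not SOCS2), and of these LIFR and CISH held a STAT match at 1 or more of their starts. The SOX motif was found in 13.7% of all windows and at CISH and at one start of SOCS3, and the E-box in 6.3% of all windows and at none of the 9 genes.

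The genes were placed by their GENCODE 29 models (hg38 coordinates, with the identifiers of the files). IL6R (ENSG00000160712.13) spans chr1:154405193-154469450 on the plus strand and JAK1 (ENSG00000162434.12) chr1:64833229-64966504 on the minus strand. IL6ST (ENSG00000134352.20) spans chr5:55935095-55994993 and LIFR (ENSG00000113594.10) chr5:38474963-38608354, both on the minus strand, and OSMR (ENSG00000145623.13) chr5:38845858-38945596 on the plus strand. STAT3 (ENSG00000168610.14) spans chr17:42313324-42388568 and SOCS3 (ENSG00000184557.4) chr17:78356778-78360077, both on the minus strand. SOCS1 (ENSG00000185338.5) spans chr16:11254405-11256200 on the minus strand, SOCS2 (ENSG00000120833.14) chr12:93569814-93583487 on the plus strand and CISH (ENSG00000114737.15) chr3:50606490-50611831 on the minus strand. Exons of IL6R, STAT3, SOCS1 and SOCS3 overlap those of no other annotated gene. Exons of the other 6 overlap a gene on the opposite strand (AC008914.1 for IL6ST, LIFR-AS1 for LIFR, RICTOR for OSMR, RAVER2 for JAK1, SOCS2-AS1 for SOCS2 and MAPKAPK3 for CISH), and since the libraries carry no strand, reads there cannot be told apart. Reads listed as ambiguous were left out of the counts, while the levels per length below divide by the full exon length.

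The DMSO levels were compared between genes per length, as RPKM (CPM per kilobase of exon). In the 6 DMSO libraries of the FHT-1015 experiment in 92-1, IL6ST stood at 19.5 ± 1.66 RPKM (SD), STAT3 at 9.97 ± 0.795, JAK1 at 7.13 ± 0.785 and IL6R at 5.59 ± 0.645. The other 6 genes lay between 0.956 ± 0.0421 (LIFR) and 1.90 ± 0.242 (CISH). In that lower set CISH, SOCS3 (1.74 ± 0.321), SOCS2 (1.44 ± 0.163), OSMR (1.33 ± 0.142) and SOCS1 (1.32 ± 0.564) were not separated from their neighbours in this order by more than their SDs. MEL202 stood out in SOCS3, the feedback inhibitor of gp130 receptors, at 9.37 ± 0.932 RPKM against 1.74 ± 0.321 in 92-1 and 1.77 ± 0.504 in MP41. MEL202 also had the highest OSMR (3.48 ± 0.757 RPKM, against 0.848 ± 0.176 in MP41), and MP41 the highest SOCS2 (6.53 ± 2.79 RPKM, against 3.00 ± 0.538 in MEL202). The mean DMSO level differed among the 3 lines for 9 of the 10 genes (edgeR, adjusted p under 0.05, as throughout), where 77.9% of all genes tested differed; the exception was IL6ST, with an adjusted p of 0.687. The LIFR call (adjusted p 0.0436) did not survive 10 of the 36 refits with a library removed, those without any DMSO library of 92-1, any 4 h DMSO library of MP41 or MP41 DMSO 24 h replicate 3. Each line was one set of libraries, so line and set cannot be told apart. In the other DMSO set of 92-1, made for IDE196, IL6ST was at 29.1 ± 5.26 RPKM, STAT3 at 14.6 ± 0.893 and IL6R at 7.29 ± 1.26 (n = 6), so each drug is set against its own DMSO below.

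**Figure D1:**
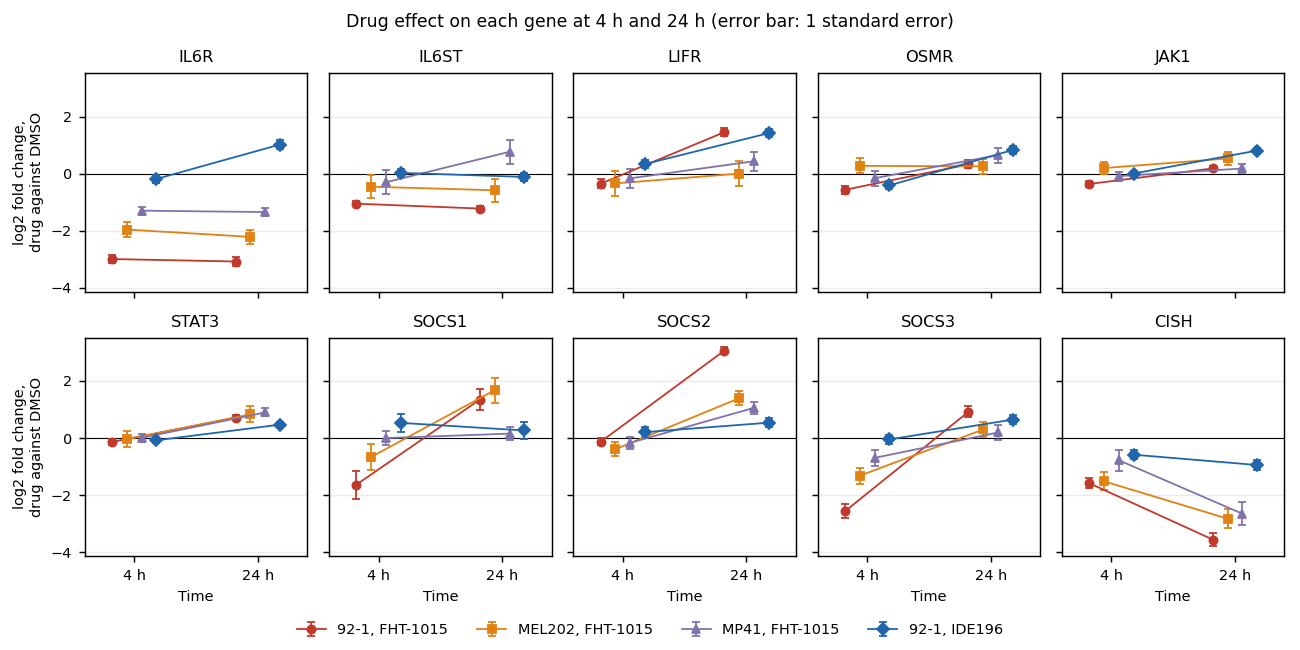
Log2 fold change of each gene against the DMSO libraries of the same time (y axis) at 4 h and 24 h (x axis), by cell line and drug; error bars are 1 standard error from edgeR, and each point rests on 3 libraries against 3. IL6R lies below 0 at both times with FHT-1015 and at 1.03 after 24 h of IDE196, SOCS2 rises to 3.06 at 24 h of FHT-1015 in 92-1, and CISH lies lower at 24 h than at 4 h with FHT-1015.

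IL6R, the ligand-binding receptor, was low in every FHT-1015 library of all 3 lines and at both times. At 4 h in 92-1 it stood at 38.7, 34.4 and 40.4 CPM with DMSO and at 6.03, 4.64 and 3.68 CPM with FHT-1015. In MEL202 the values were 107, 90.1 and 63.6 CPM with DMSO and 24.5, 26.5 and 16.7 CPM with FHT-1015, and in MP41 60.8, 60.9 and 59.7 CPM against 22.2, 25.1 and 26.8 CPM. The groups did not overlap in any line, a separation in this direction that 20.9% of all genes showed in 92-1, 4.92% in MEL202 and 10.7% in MP41. The log2 fold changes at 4 h were -2.99 (SE 0.16) in 92-1, -1.95 (SE 0.25) in MEL202 and -1.29 (SE 0.14) in MP41, and since the gene was chosen on these values they are a description.

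The 24 h libraries are separate samples, and IL6R was again low there. In 92-1 it stood at 38.5, 28.9 and 35.7 CPM with DMSO and at 3.83, 3.91 and 4.61 CPM with FHT-1015, a log2 fold change of -3.07 (SE 0.16, adjusted p 4.06e-10), which is 8.41-fold lower. In MEL202 it went from 51.2, 76.0 and 67.8 CPM to 14.2, 12.5 and 14.8 CPM, a log2 fold change of -2.21 (SE 0.26, adjusted p 6.33e-05). In MP41 it went from 78.0, 100 and 74.9 CPM to 28.9, 33.2 and 33.2 CPM, a log2 fold change of -1.34 (SE 0.13, adjusted p 6.63e-06). The lowest DMSO library thus stayed above the highest FHT-1015 library in each line, a pattern found for 32.6% of all genes in 92-1, 26.2% in MEL202 and 22.4% in MP41. The MP41 call was kept without DMSO 24 h replicate 2 and without replicate 3. The size of the effect at 24 h differed among the lines (edgeR F-test of the interaction over 36 libraries, adjusted p 0.000294), with 92-1 the deepest and MP41 the shallowest, and this held in all 36 fits that left out 1 library; 12% of all genes differed among the lines at 24 h.

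With IDE196, IL6R was higher than in DMSO at 24 h. At 4 h the 92-1 cells had 52.9, 39.5 and 37.6 CPM with IDE196 and 62.4, 43.5 and 41.3 CPM with DMSO, ranges that overlap (log2 fold change -0.18, SE 0.15, adjusted p 0.485). At 24 h they had 93.6, 86.3 and 104 CPM with IDE196 and 49.7, 43.8 and 41.5 CPM with DMSO, a log2 fold change of 1.03 (SE 0.15, adjusted p 1.32e-05). All 3 IDE196 libraries then lay above all 3 DMSO libraries, as they did for 34.8% of all genes. The difference between the effects of the 2 drugs at 24 h was -4.10 on the log2 scale (FHT-1015 minus IDE196, SE 0.24, edgeR adjusted p 1.83e-13 over the 24 libraries of 92-1), a 17.1-fold difference.

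**Figure D2:**
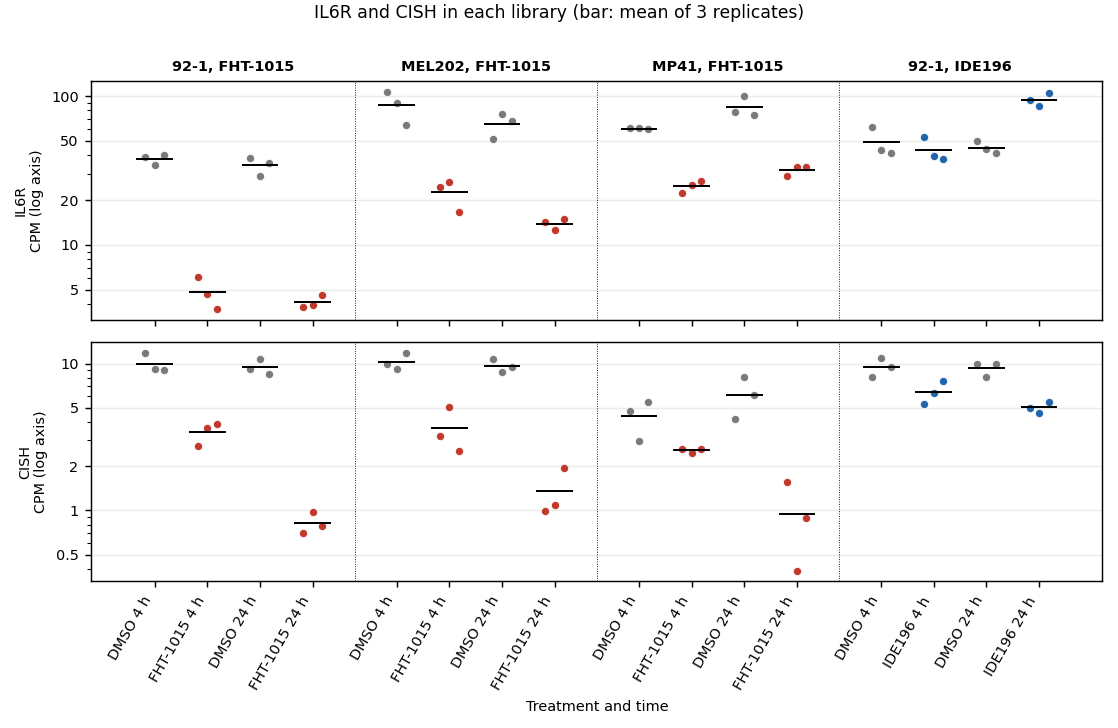
IL6R and CISH in each library, in CPM on a log axis, by cell line, drug and time; each point is a library and each bar the mean of 3. In all 3 lines the FHT-1015 libraries (red) lie below the DMSO libraries of their own time (grey) for both genes, while after 24 h of IDE196 (blue) IL6R is higher and CISH lower than in DMSO.

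IL6ST, the shared gp130 chain, fell with FHT-1015 in 92-1. It stood at 184, 184 and 201 CPM with DMSO and at 102, 96.8 and 81.3 CPM with FHT-1015 at 4 h (log2 fold change -1.05, SE 0.09, adjusted p 3.84e-07). At 24 h it stood at 189, 157 and 169 CPM against 73.0, 76.4 and 75.5 CPM (log2 fold change -1.22, SE 0.09, adjusted p 1.5e-08). In the other lines edgeR called no difference. MEL202 libraries ranged from 57.6 to 211 CPM with DMSO at 4 h and from 44.7 to 135 CPM with FHT-1015. At 24 h they lay apart, at 139, 218 and 179 CPM with DMSO and 124, 107 and 122 CPM with FHT-1015 (log2 fold change -0.58, SE 0.41, adjusted p 0.373), and limma-voom (adjusted p 0.00521) and the fit of these 6 libraries alone (adjusted p 0.017) called them lower. The share of all genes that lay apart in this direction in MEL202 at 24 h was 26.2%. In MP41 the 4 h libraries also lay apart, as for 10.7% of all genes in this direction, at 220, 235 and 240 CPM with DMSO and 149, 206 and 212 CPM with FHT-1015 (log2 fold change -0.30, SE 0.42). In MP41 at 24 h the DMSO libraries lay at 92.6, 43.5 and 238 CPM and the FHT-1015 libraries at 230, 187 and 208 CPM. The log2 fold change there was 0.77 (SE 0.42, adjusted p 0.172). Without the third of those MP41 DMSO libraries (replicate 3, 238 CPM) the 24 h comparison was called, in the direction of higher IL6ST with FHT-1015. A difference among the lines at 24 h was called (adjusted p 0.0396), but not in 14 of 36 refits without 1 library, where the adjusted p ran from 0.000243 to 0.123. Those were the refits without any 24 h library of 92-1 or 24 h FHT-1015 library of MP41, MP41 DMSO 24 h replicate 1 or 2, MEL202 DMSO 24 h replicate 3 or MEL202 FHT-1015 24 h replicate 2 or 3. IDE196 left IL6ST at log2 fold changes of 0.03 (SE 0.14) at 4 h and -0.11 (SE 0.14) at 24 h, neither called.

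LIFR and OSMR, the partner chains for LIF and oncostatin M, rose late in 92-1 with both drugs. LIFR stood at 10.8, 11.2 and 11.1 CPM with DMSO and at 33.7, 30 and 28.2 CPM after 24 h of FHT-1015, a log2 fold change of 1.45 (SE 0.15, adjusted p 4.65e-07). After 24 h of IDE196 it stood at 41.2, 39.7 and 51.0 CPM against 18.1, 15.7 and 13.7 CPM, a log2 fold change of 1.42 (SE 0.15, adjusted p 3.41e-07). The effects of the drugs on LIFR at 24 h differed by 0.03 (SE 0.21). OSMR was lower at 4 h of FHT-1015 (9.66, 9.52 and 10.6 CPM with DMSO, 6.46, 7.51 and 6.46 CPM with the drug, log2 fold change -0.56, SE 0.14, adjusted p 0.00598), which did not pass when all 48 samples were fitted together (adjusted p 0.121). At 24 h of FHT-1015 its log2 fold change was 0.33 (SE 0.14, adjusted p 0.0473), a rise that kept its call in 2 of the 12 fits that left out 1 library (those without DMSO 24 h replicate 1 or FHT-1015 24 h replicate 2) and with 5 of 9 other settings. At 24 h of IDE196 OSMR was higher by 0.83 (SE 0.14, adjusted p 5.28e-05). In MEL202 and MP41 neither gene passed the test at either time, and the LIFR libraries spread widely there (8.13, 20.8 and 15.0 CPM in MEL202 DMSO at 24 h). As for IL6ST, LIFR and OSMR were called higher in MP41 at 24 h only without DMSO 24 h replicate 3, among the 12 fits that left out 1 library.

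**Figure D3:**
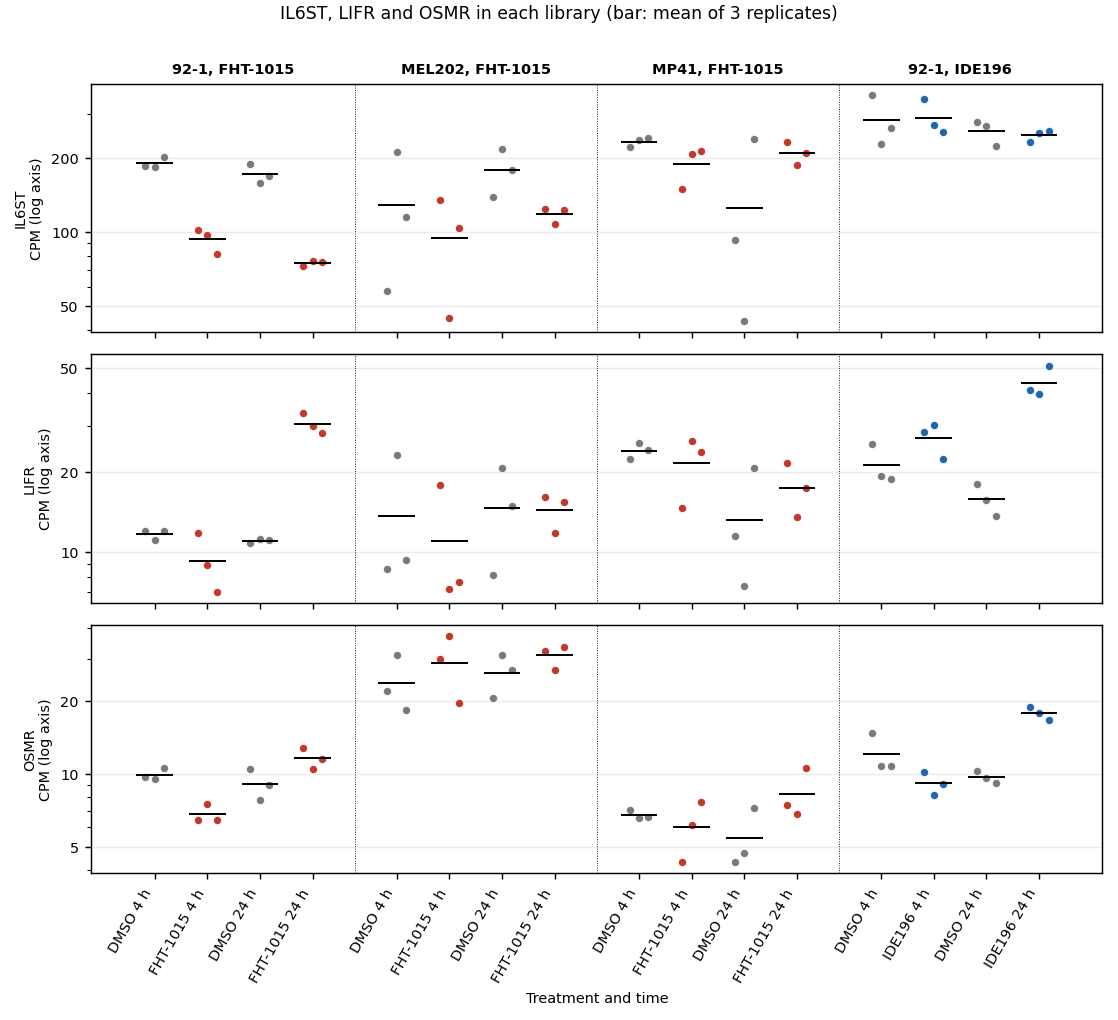
IL6ST, LIFR and OSMR in each library, in CPM on a log axis, by cell line, drug and time; each point is a library and each bar the mean of 3. The 92-1 groups are tight and separate at 24 h of FHT-1015, with IL6ST lower and LIFR higher than DMSO, while the MP41 DMSO libraries at 24 h spread from 43.5 to 238 CPM for IL6ST.

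STAT3, the signal carrier, was not called at 4 h with either drug (log2 fold changes from -0.13 to 0.01) and was higher at 24 h. In 92-1 it stood at 91.0, 78.2 and 82.2 CPM with DMSO and at 127, 135 and 155 CPM with FHT-1015 at 24 h (log2 fold change 0.71, SE 0.09, adjusted p 7.83e-06). In MP41 the libraries went from 182, 230 and 151 CPM to 370, 318 and 313 CPM (0.90, SE 0.14, adjusted p 0.000301). In MEL202 they lay at 81.3, 134 and 119 CPM against 200, 195 and 190 CPM, groups that do not overlap either (25.8% of all genes separated that way), at a log2 fold change of 0.83 (SE 0.28) and an adjusted p of 0.0557. That value was below 0.05 with 8 of the 9 other settings and with 4 of 12 single libraries left out, so the MEL202 result sits at the threshold. The test for a difference among the lines gave an adjusted p of 0.973. After 24 h of IDE196, STAT3 was higher by 0.47 (SE 0.08, adjusted p 6.06e-05). JAK1, the kinase bound to these receptors, was called with FHT-1015 against DMSO in 92-1 at 4 h, and not at 24 h or in the other lines. In 92-1 it stood at 52.3, 46.8 and 47.5 CPM with DMSO and 44.1, 36.2 and 36 CPM with FHT-1015 at 4 h (log2 fold change -0.36, SE 0.10, adjusted p 0.0119), a call lost without DMSO 4 h replicate 1 or FHT-1015 4 h replicate 2 and with all 48 samples in one fit (adjusted p 0.189). In MEL202 at 24 h it ran from 64.6 to 92.6 CPM with DMSO (mean 78.7) and lay at 115, 107 and 116 CPM with FHT-1015. These groups do not overlap, as for 25.8% of all genes in this direction (log2 fold change 0.54, SE 0.23, adjusted p 0.118). JAK1 was called higher there by 3 of 9 other settings (all 48 samples in one fit 0.0079, limma-voom 0.000438 and the 6 libraries alone 0.014, as adjusted p). At 24 h JAK1 rose with IDE196 (48.2, 41.6 and 44.3 CPM to 84.4, 78.8 and 80.7 CPM, log2 fold change 0.81, SE 0.10, adjusted p 1.88e-06) but was not called with FHT-1015 (0.19, SE 0.10, adjusted p 0.109, called at 0.0282 when scaled by library size alone), and the effects of the drugs differed by -0.63 (FHT-1015 minus IDE196, SE 0.14, adjusted p 0.000865).

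CISH, which binds activated cytokine receptors and is induced by STAT5, fell with FHT-1015 in all 3 lines at 24 h. In 92-1 it stood at 9.17, 10.7 and 8.48 CPM with DMSO and at 0.697, 0.977 and 0.778 CPM with FHT-1015 (10 to 13 reads), a log2 fold change of -3.55 (SE 0.23, adjusted p 3.5e-09) or 11.7-fold lower. In MEL202 it went from 10.8, 8.73 and 9.45 CPM to 0.994, 1.09 and 1.95 CPM (log2 fold change -2.82, SE 0.34, adjusted p 8.92e-05). In MP41 it went from 4.17, 8.05 and 6.10 CPM to 1.57, 0.389 and 0.890 CPM (log2 fold change -2.65, SE 0.41, adjusted p 0.000224). The test for a difference among the lines at 24 h gave an adjusted p of 0.477. At 4 h the fall was under way in 92-1, where the DMSO libraries had 11.8, 9.19 and 9.04 CPM and the FHT-1015 libraries 2.73, 3.64 and 3.88 CPM (log2 fold change -1.58, SE 0.18, adjusted p 8.58e-06). The effect in 92-1 then deepened by a further -1.97 (SE 0.30, adjusted p 8.01e-05) between 4 h and 24 h. In MEL202 the 4 h values were 9.93, 9.26 and 11.8 CPM against 3.24, 5.09 and 2.53 CPM (log2 fold change -1.52, SE 0.32, adjusted p 0.0483). Of the 12 refits without 1 library only that without FHT-1015 4 h replicate 2 kept the call, with an adjusted p of 0.0120, and 5 of 9 other settings lost it. In MP41 the 4 h groups did not overlap, as for 10.7% of all genes in this direction, but were not called (-0.78, SE 0.38, adjusted p 0.885). CISH was also the only one of the 10 genes called at 4 h of IDE196 (5.29, 6.35 and 7.65 CPM against 8.09, 11 and 9.52 CPM with DMSO, log2 fold change -0.58, SE 0.17, adjusted p 0.0233, lost without DMSO replicate 5 or 6 or IDE196 replicate 1 or 2, with all 48 samples in one fit and with the 6 libraries alone). At 24 h of IDE196 it lay at 4.99, 4.62 and 5.47 CPM against 9.93, 8.07 and 10 CPM (log2 fold change -0.94, SE 0.17, adjusted p 0.000148). The FHT-1015 effect on CISH at 24 h was deeper than that of IDE196 by -2.61 (SE 0.30, adjusted p 8.62e-08).

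SOCS2, which restrains growth hormone signalling, moved opposite to CISH with FHT-1015. At 24 h in 92-1 it stood at 11, 11.3 and 9.15 CPM with DMSO and at 78.7, 92.2 and 95.1 CPM with FHT-1015, an 8.33-fold rise (log2 fold change 3.06, SE 0.12, adjusted p 1.27e-11). In MEL202 it rose from 20.3, 21.9 and 23.9 CPM to 53.9, 59.1 and 58.3 CPM (log2 fold change 1.39, SE 0.25, adjusted p 0.00161). In MP41 the libraries lay at 27.0, 24.9 and 35.6 CPM with DMSO and at 53.1, 52.5 and 70.4 CPM with FHT-1015 (log2 fold change 1.06, SE 0.22, adjusted p 0.00226). The MP41 difference came with lower DMSO levels at 24 h than at 4 h (68.1, 43.9 and 65.8 CPM at 4 h, log2 fold change -1.09, SE 0.22, adjusted p 0.0294), a DMSO difference that 4 of 12 refits did not keep (those without DMSO 4 h replicate 1 or 3 or DMSO 24 h replicate 1 or 2). The FHT-1015 libraries of MP41 at 4 h (59.2, 42.1 and 57.6 CPM) and 24 h covered similar ranges. Among the lines the effect at 24 h was unequal (adjusted p 1.04e-05, called in all 36 fits that left out 1 library). At 4 h SOCS2 was not called in any line, and after 24 h of IDE196 it was higher by 0.54 (SE 0.17, adjusted p 0.00993, lost without IDE196 24 h replicate 2).

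SOCS3 and SOCS1, the inhibitors that bind JAKs directly, went down first and up later in 92-1. SOCS3 stood at 3.75, 4.84 and 5.35 CPM with DMSO and at 0.824, 0.819 and 0.710 CPM (11 to 19 reads) after 4 h of FHT-1015, a log2 fold change of -2.57 (SE 0.25, adjusted p 1.53e-06). At 24 h the order was the reverse, with 3.58, 5.47 and 5.53 CPM in DMSO and 9.34, 10.3 and 8.38 CPM with FHT-1015 (log2 fold change 0.92, SE 0.20, adjusted p 0.000913). The effect at 24 h minus that at 4 h was 3.49 (SE 0.32, adjusted p 5.78e-07). In MEL202 the 4 h groups were also apart, 30.2, 26.1 and 24.4 CPM against 6.93, 11.8 and 13.7 CPM, as for 4.92% of all genes in this direction. The adjusted p, however, was 0.0542 (log2 fold change -1.32, SE 0.28). It was below 0.05 with 3 of 9 other settings (DESeq2 0.00121, all 48 samples in one fit 0.000137 and no filter 0.00159) and in 1 of 12 refits without 1 library (FHT-1015 24 h replicate 1, 0.0484). At 24 h the log2 fold change was 0.30 (SE 0.28). In MP41 SOCS3 was not called at either time (-0.69, SE 0.27, and 0.20, SE 0.26). A difference among the lines at 4 h was called (adjusted p 0.0285), as for 1.38% of all genes, but 8 of 36 refits did not keep it, those without 92-1 DMSO replicate 2 or 3, any 92-1 FHT-1015 library, MP41 DMSO replicate 2 or MP41 FHT-1015 replicate 1 or 3 of that time. With IDE196 SOCS3 was not called at 4 h (-0.05, SE 0.16) and higher at 24 h (0.65, SE 0.16, adjusted p 0.00233).

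SOCS1 rested on few reads, 7 to 140 per library. In 92-1 it had 1.19, 1.99 and 2.71 CPM with DMSO and 0.303, 0.410 and 1.36 CPM with FHT-1015 at 4 h (log2 fold change -1.63, SE 0.48, adjusted p 0.0187), groups that overlap and a call lost without DMSO 4 h replicate 3 or FHT-1015 4 h replicate 1 or 2. At 24 h it had 1.72, 2.52 and 4.12 CPM with DMSO and 6.41, 7.49 and 7.54 CPM with FHT-1015 (log2 fold change 1.35, SE 0.38, adjusted p 0.00594). In MEL202 at 24 h it rose from 1.18, 0.698 and 0.903 CPM to 2.23, 3.20 and 3.44 CPM (log2 fold change 1.68, SE 0.44, adjusted p 0.016), a call lost without DMSO 24 h replicate 2 or 3 or FHT-1015 24 h replicate 2 or 3. In MP41 and with IDE196 it was not called.

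**Figure D4:**
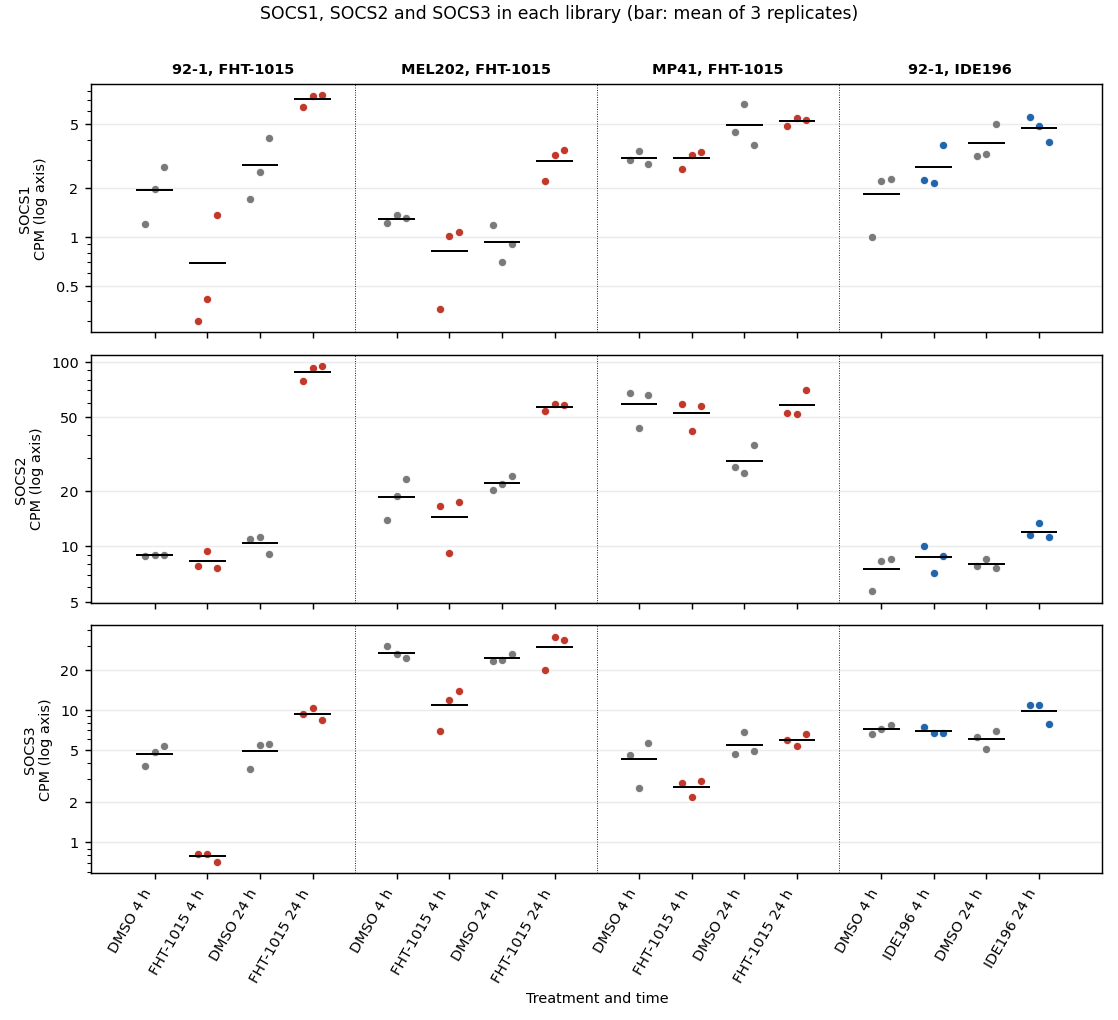
SOCS1, SOCS2 and SOCS3 in each library, in CPM on a log axis, by cell line, drug and time; each point is a library and each bar the mean of 3. In 92-1 with FHT-1015 the SOCS3 libraries lie at 0.710 to 0.824 CPM at 4 h and at 8.38 to 10.3 CPM at 24 h, and SOCS2 reaches 78.7 to 95.1 CPM at 24 h; in MP41 the DMSO level of SOCS2 is lower at 24 h than at 4 h.

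Counted over the list, the FHT-1015 response in 92-1 was downward at 4 h and mixed at 24 h. At 4 h, 6 of the 9 genes other than IL6R were lower and 0 higher (IL6ST, OSMR, JAK1, SOCS1, SOCS3 and CISH), where 16.7% of all 15685 genes tested were lower, 12.9% were higher and 29.5% changed either way. The median log2 fold change of these 9 was -0.56, against 0.01 over all genes. At 24 h, 3 of the 10 were lower (IL6R, IL6ST and CISH) and 6 higher (LIFR, OSMR, STAT3, SOCS1, SOCS2 and SOCS3), where 60.6% of all genes changed (31.4% lower and 29.2% higher). For 8 of the 9 genes other than IL6R the 24 h effect differed from the 4 h effect, 7 upward and CISH downward, where 45.5% of all genes differed (21.1% upward and 24.3% downward); the exception was IL6ST (-0.17, SE 0.12). In MEL202 3 of these 9 differed between the times (SOCS1, SOCS2 and SOCS3, all upward, where 6.89% of all genes differed), and in MP41 3 of 9 (STAT3 and SOCS2 upward and CISH downward, 18.6%). The MEL202 call for SOCS1 (adjusted p 0.0398) was kept without FHT-1015 4 h replicate 2 or replicate 3 alone, of 12 single libraries, and the SOCS3 call (adjusted p 0.0254) was lost without any of the 3 DMSO 24 h libraries, FHT-1015 4 h replicate 1 or FHT-1015 24 h replicate 2 or 3. The MP41 call for CISH (adjusted p 0.0301) was lost without DMSO 4 h replicate 1 or 2, FHT-1015 4 h replicate 2 or FHT-1015 24 h replicate 2 or 3.

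In MEL202 few genes of any kind were called at 4 h (0.679%, of which 0.522% lower and 0.157% higher), and CISH was the one called of the 9 genes other than IL6R. In MP41 0.225% of all genes were called (0.154% lower and 0.0708% higher) and 0 of the 9 by edgeR, DESeq2 or limma-voom. SOCS3 was the 1 gene of the 9 at an unadjusted edgeR p under 0.05, as were 899 of all 15543 genes. The SE of IL6ST at 4 h was 0.41 in MEL202 and 0.42 in MP41, against 0.09 in 92-1. At 24 h, 4 of 10 were called in MEL202 (IL6R and CISH lower, SOCS1 and SOCS2 higher, where 18.8% of all genes changed, 10.1% lower and 8.69% higher) and 4 of 10 in MP41 (IL6R and CISH lower, STAT3 and SOCS2 higher, where 36.1% changed, 18.7% lower and 17.4% higher). The 4 MP41 calls were kept without DMSO 24 h replicate 2 and without replicate 3. Without replicate 3, 7 of 10 were called, in a refit that called 7905 of all 16035 genes tested. IL6R and CISH were thus lower and SOCS2 higher at 24 h of FHT-1015 in each of the 3 lines. Between DMSO at 4 h and at 24 h, SOCS2 in MP41 was the one call by edgeR, in a set where 2.59% of all genes differed. The count was 0 of 10 in the FHT-1015 set of 92-1 (0.344% of all genes), in the IDE196 set of 92-1 (0.266%) and in MEL202 (0%). At an unadjusted edgeR p under 0.05 the counts in these sets were 1, 3 and 0. Over all genes tested, 1382 of 15685, 2214 of 15437 and 330 of 15913 passed that threshold. DESeq2 called 0, 1 and 0 of the 10, and 152, 273 and 1 of all genes.

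With IDE196, 1 of 10 genes was called at 4 h (CISH, lower, where 16.2% of all genes changed, 9.3% lower and 6.89% higher) and 8 of 10 at 24 h (CISH lower and IL6R, LIFR, OSMR, JAK1, STAT3, SOCS2 and SOCS3 higher, where 58.1% changed, 29.4% lower and 28.7% higher). For 6 of 10 the 24 h effect of IDE196 differed from the 4 h effect (IL6R, LIFR, OSMR, JAK1, STAT3 and SOCS3, all upward, where 30.7% of all genes differed), the largest being 1.24 for OSMR (SE 0.20, adjusted p 0.000129) and 1.21 for IL6R (SE 0.21, adjusted p 0.000308). The SOCS3 call (adjusted p 0.0288) was kept in 5 of 12 refits without 1 library (those without DMSO 4 h replicate 4, DMSO 24 h replicate 4 or 6, IDE196 4 h replicate 1 or IDE196 24 h replicate 3). Set against each other in 92-1, the effects of the drugs differed at 4 h for 5 of the 9 genes other than IL6R (IL6ST, LIFR, SOCS1, SOCS3 and CISH), all lower with FHT-1015, where 24.6% of all genes differed (14% lower and 10.7% higher). The largest of these differences was that of SOCS3, -2.52 (SE 0.30, adjusted p 3.79e-07). At 24 h they differed for 6 of 10 (33% of all genes, 17.1% lower and 15.9% higher), with IL6R, IL6ST, OSMR, JAK1 and CISH lower and SOCS2 higher with FHT-1015 (SOCS2 by 2.52, SE 0.20, adjusted p 1e-10). The OSMR difference at 24 h (-0.51, SE 0.19, adjusted p 0.0431) was kept in 5 of 24 refits without 1 library (those without DMSO 24 h replicate 2 or FHT-1015 24 h replicate 1 of the FHT-1015 set, DMSO 4 h replicate 4 or 5 or IDE196 24 h replicate 3). The LIFR difference at 4 h (-0.69, SE 0.22, adjusted p 0.0206) was lost without FHT-1015 4 h replicate 2 or 3, DMSO 4 h replicate 5 or 6 of the IDE196 set or IDE196 4 h replicate 2.

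The rest of the pathway was followed in 120 further genes, 27 ligands, 32 receptors, 9 kinases and STATs, 22 other inhibitors and regulators, and 30 known STAT target genes. Of the ligands that signal through gp130, no library had more than 8 reads of IL6, 11 of LIF, 7 of IL11 or 1 of OSM, where 3 reads was taken as the floor. CNTF reached 35 reads, CLCF1 56 and CTF1 81 in the library with the most. In 92-1, 72 of the 120 had enough reads, of which 11 rose and 21 fell at 4 h of FHT-1015 (7 and 14 with all 48 samples in one fit), where 12.9% of all genes rose and 16.7% fell. At 24 h 24 rose and 19 fell, where 29.2% of all genes rose and 31.4% fell. By role, 1 of the 6 ligands tested was higher and 0 lower at 4 h, 3 of the 14 receptors higher and 4 lower, 0 of the 8 kinases and STATs higher and 4 lower, 2 of the 21 other inhibitors and regulators higher and 5 lower, and 5 of the 23 STAT target genes higher and 8 lower. At 24 h these counts were 4 and 1 for the ligands, 4 and 4 for the receptors, 2 and 1 for the kinases and STATs, 7 and 6 for the inhibitors and regulators, and 7 and 7 for the STAT target genes. In MEL202 1 of 73 was called at 4 h (0 to 8 across the alternatives), as were 0.679% of all genes, and at 24 h 10 rose and 12 fell, where 8.69% of all genes rose and 10.1% fell. The latter counts ran from 5 higher and 9 lower without FHT-1015 24 h replicate 2 to 25 higher and 18 lower with limma-voom. In MP41 1 of 80 was called at 4 h (0 to 13 across the alternatives), as were 0.225% of all genes. At 24 h 20 rose and 14 fell in MP41 (30 and 25 with limma-voom, 12 and 11 with the 6 libraries alone), where 17.4% of all genes rose and 18.7% fell. With IDE196 10 were higher and 19 lower of 73 at 4 h (3 and 11 with all 48 samples in one fit), where 6.89% of all genes were higher and 9.3% lower. At 24 h of IDE196 19 rose and 23 fell, where 28.7% of all genes rose and 29.4% fell. By role, 1 ligand was higher and 2 lower there, 3 receptors higher and 5 lower, 4 kinases and STATs higher and 0 lower, 7 inhibitors and regulators higher and 5 lower, and 4 STAT target genes higher and 11 lower.

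CCND1, the cyclin D1 gene and a classical STAT3 target, was one of the 2 largest called falls in 4 of the 8 drug comparisons. At 24 h of FHT-1015 it went from 432 ± 104 to 39.5 ± 3.40 CPM (SD, n = 3) in MEL202 (log2 fold change -3.43, edgeR adjusted p 2.46e-05) and from 590 ± 108 to 117 ± 5.09 CPM in MP41 (-2.27, adjusted p 1.41e-07). At 4 h it fell in 92-1 with FHT-1015 (-1.39) and with IDE196 (-1.89), the other 2 of these comparisons, and it was lower at 24 h there too (-1.86 with FHT-1015, -1.42 with IDE196). CNTFR, the receptor chain for ciliary neurotrophic factor, which also signals through gp130, fell at 24 h of FHT-1015 in 92-1 (-2.55), MEL202 (-2.71) and MP41 (-2.36), and at 24 h of IDE196 (-0.89). IL12RB2, a chain of the interleukin-12 receptor, fell at 24 h of FHT-1015 in 92-1 (-2.31) and in MEL202 (22.1 ± 4.67 to 5.78 ± 0.976 CPM, -1.91, adjusted p 0.00132). In MP41 IL12RB2 went from 60.9 ± 5.64 to 42.4 ± 10.2 CPM (-0.47, adjusted p 0.0472), which 10 of 21 other fits called. The cytokine gene TSLP rose at 24 h of FHT-1015 in 92-1 from 8.55 ± 1.74 to 54.8 ± 3.80 CPM (2.67, adjusted p 4.87e-09) and fell at 24 h of IDE196 (-0.92). In MEL202 its value at 24 h was 0.79 (adjusted p 0.282), and in MP41 it had too few reads to be tested. CEBPD, an acute-phase transcription factor and STAT3 target, rose at 24 h of FHT-1015 in 92-1 (2.81), MEL202 (1.29) and MP41 (1.86) and at 24 h of IDE196 (2.60).

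The kinase gene PIM3 fell with both drugs at both times in 92-1 (-1.52 and -1.47 at 4 h and 24 h of FHT-1015, -0.88 and -2.15 with IDE196) and at 24 h of FHT-1015 in MEL202 (-2.09) and MP41 (-2.14). PIM1 rose at 4 h and 24 h of IDE196 (1.74 and 1.13) and fell at 4 h of FHT-1015 in 92-1 (-1.17), and the effects of the drugs at 4 h differed by -2.91 (FHT-1015 minus IDE196, edgeR adjusted p 1.71e-08). FOS and JUNB, which encode AP-1 subunits, rose at 4 h of FHT-1015 in 92-1 (0.94 and 0.95) and fell at 4 h of IDE196 (-1.92 and -1.41). At 24 h JUNB was higher with FHT-1015 in 92-1 (0.79), MEL202 (0.78) and MP41 (0.69) and lower with IDE196 (-1.46), where the MEL202 call was lost without DMSO 24 h replicate 2 or 3 or FHT-1015 24 h replicate 2 and the MP41 call with the 6 libraries alone. The effects of the drugs at 4 h differed by 2.86 for FOS (adjusted p 2.63e-09) and by 2.36 for JUNB (adjusted p 3.12e-08).

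MYC was the single called gene of the list at 4 h in MEL202 (0.96, adjusted p 0.0367) and in MP41 (0.77, adjusted p 0.0171), and it rose at 4 h in 92-1 as well (0.53, adjusted p 0.00823), where it fell at 4 h of IDE196 (-0.98). At 24 h it fell with FHT-1015 in 92-1 (-1.88), MEL202 (-1.76) and MP41 (-1.03) and with IDE196 (-1.76). The 4 h MYC call in MP41 was lost without any one of the 6 libraries of 4 h. That in MEL202 was lost with the replicate block, with the 6 libraries alone and in 9 of 12 fits without 1 library (all but those without DMSO 4 h replicate 1, DMSO 24 h replicate 2 or FHT-1015 4 h replicate 2).

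GAB1, an adaptor of gp130 signalling, rose at 24 h of FHT-1015 in 92-1 (0.66), MEL202 (1.48) and MP41 (0.94, not called with the 6 libraries alone), and at 4 h and 24 h of IDE196 (0.61 and 1.32), where the 4 h value did not pass when all 48 samples were fitted together (adjusted p 0.104). EPOR, the erythropoietin receptor, rose at 24 h of FHT-1015 in 92-1 (1.47), MEL202 (1.47) and MP41 (0.98) and at 24 h of IDE196 (0.64). The test for a difference among the lines at 24 h gave an adjusted p of 0.248 for GAB1 and 0.232 for EPOR. PRLR, the prolactin receptor, rose in MP41 at 24 h (1.56), the line in which it had enough reads to be tested. STAT2, the interferon-responsive STAT, rose at 24 h of IDE196 (1.52) and of FHT-1015 in 92-1 (0.84) and MP41 (0.80), and in MEL202 its value was 0.62 (adjusted p 0.054).

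The genes whose levels ran most like those of IL6R were melanocyte-lineage and other genes outside the pathway. Likeness was Pearson's r of log2 CPM over the 48 libraries, centred within each of the 4 sets of libraries, over 11660 genes, and since all points share the same libraries and treatments it is a description. SOX10, a transcription factor of the neural crest and melanocytes, came first (r = 0.932), followed by the receptor kinase gene ERBB3 (0.915), ABTB2 (0.914), CARD10 (0.913) and the POU factor gene POU3F1 (0.909). SOX10 fell more than IL6R in all 6 FHT-1015 comparisons, with log2 fold changes of -4.94, -3.04 and -2.26 at 4 h in 92-1, MEL202 and MP41 and of -4.69, -5.43 and -4.74 at 24 h. At 24 h of IDE196 SOX10 was at 0.67 and ERBB3 at 2.19, beside 1.03 for IL6R. Among the other 9 pathway genes CISH ran closest to IL6R (r = 0.77), then IL6ST (0.33) and SOCS3 (0.28), and SOCS2 ran opposite (-0.50). JAK1 (0.04) and OSMR (0.06) showed almost no relation with it.

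**Figure D5:**
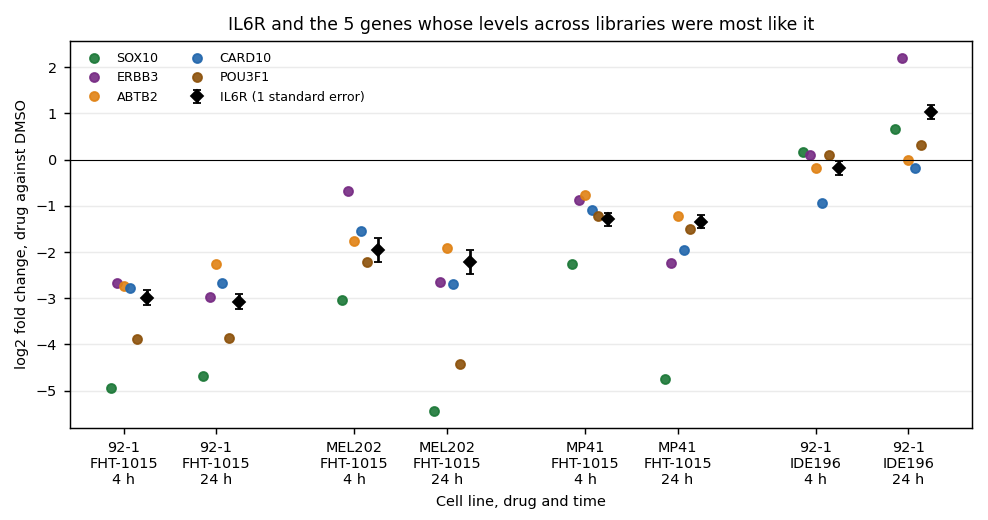
Log2 fold change against DMSO (y axis) of IL6R (black, with 1 standard error) and of the 5 genes whose levels across the 48 libraries were most like it, for each cell line, drug and time (x axis). All 6 genes lie below 0 in the 6 FHT-1015 comparisons, with SOX10 the lowest in each, and at 24 h of IDE196 they lie between -0.17 (CARD10) and 2.19 (ERBB3).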

How the data were processed

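The authors deposited raw read counts per gene for 48 poly-A libraries, unstranded and by strand; hg38 and limma are named in the submitters' processing notes, and the aligner is not given in the sources used here. The unstranded counts were analysed, as the first strand held 49.7% to 50.1%. Per the file headers, ambiguous reads and reads with no feature are listed apart from genes; they were left out (9.83% to 12.5% and 2.35% to 7.32% of these reads and those in genes). Symbols and exon lengths came from GENCODE 29. Counts were tested in R 4.3.3 with edgeR 4.0.16 (TMM, filterByExpr, quasi-likelihood F-test), in one fit of 12 libraries per line and drug, of 36 for differences among lines and of 24 between drugs. P-values were adjusted by Benjamini-Hochberg over all genes tested, and a gene was called below 0.05. The SE is the log2 fold change divided by the root of F. CPM use TMM factors over all 48 libraries. Alternatives were other scalings, DESeq2 1.42.0, limma-voom 3.58.1, no filter, other sample sets, a replicate block, summed strand columns and leaving out each library. The members, lists and tests were chosen with earlier results of these data known. Named were all 10 members, the 2 largest called rises and falls per drug comparison among 120 pathway genes (mean of at least 5 CPM), and the 5 protein-coding genes with the highest r with IL6R. Replicate numbers were not used to pair libraries in the main fits. Deviations of drug and DMSO libraries of the same number correlated above 0.1 in 7 of 18 pairs (r from -0.33 to 0.51). Such mixed values do not settle whether the libraries were paired.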

Additional observations from a re-analysis of the deposited data

Results flagged for a closer look

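The FHT-1015 effect differed among the 3 lines at 24 h for IL6R (edgeR interaction F-test, adjusted p 0.000294), SOCS2 (adjusted p 1.04e-05) and IL6ST (adjusted p 0.0396), and at 4 h for SOCS3 (adjusted p 0.0285). Behind this were IL6R log2 fold changes of -3.07 (92-1), -2.21 (MEL202) and -1.34 (MP41), and of SOCS2 of 3.06, 1.39 and 1.06. Those of IL6ST were -1.22, -0.58 and 0.77, with the replicate spread given above, and those of SOCS3 at 4 h were -2.57, -1.32 and -0.69.

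In 92-1, 3 genes were called lower at 4 h of FHT-1015 and higher at 24 h, and the test of the difference between the times was passed for each. They were SOCS3 (adjusted p 5.78e-07), SOCS1 (adjusted p 0.000971) and OSMR (adjusted p 0.0015). The log2 fold changes were -2.57 and 0.92 for SOCS3, -1.63 and 1.35 for SOCS1 and -0.56 and 0.33 for OSMR. The 24 h call for OSMR was lost in 10 of 12 refits without 1 library and in 4 of 9 other settings (adjusted p up to 0.226 there, with all 48 samples in one fit), and the 4 h call for SOCS1 in 3 of 12 refits.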

How the results depend on the processing

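Of 700 refits of the 80 gene values against DMSO under 9 other settings, 649 kept direction and side of the threshold, 13 lost the call, 26 gained it and 12 changed sign. Of 960 refits without 1 library, 884 kept both. IL6R at 4 h of FHT-1015 has no test. Its refits were counted as kept where the sign held and the value stayed within a set multiple of the main SE. The calls for IL6R, CISH and SOCS2 at 24 h of FHT-1015 were kept in every refit in all 3 lines. Counts of called genes moved as follows, and the cause was not tested. At 4 h of FHT-1015 in MEL202 the count was 1, 2 with DESeq2, with all 48 samples in one fit or with no filter, and 0 with RLE normalization, library size alone, the 6 samples compared alone, the summed strand columns or the replicate block, and 0 to 1 without 1 library. At 24 h it went from 4 to 7 with limma-voom or with the 6 samples alone. There limma-voom called 8824 of all 15913 genes and the 6 samples alone 6256 of 15261, against 2984 of 15913 in the main test. For the difference between times in MEL202 the count went from 3 to 5 with all 48 samples and to 1 to 3 without 1 library. In MP41 limma-voom gave 7 genes at 24 h (4 in the main test), for the difference between times (3) and for DMSO between times (1); without 1 library these were 4 to 7, 2 to 6 and 0 to 6, the highest each without DMSO 24 h replicate 3. MP41 DMSO between times also gave 4 with DESeq2, 2 with all 48 samples and 3 with no filter. These settings called 1828 of 15543, 2895 of 18871 and 2505 of 33880 genes. IDE196 at 4 h (1) gave 2 with DESeq2 or limma-voom, 0 with all 48 samples or the 6 alone, and 0 to 2 without 1 library. With all 48 samples the IDE196 difference between times fell from 6 to 3 (LIFR, STAT3 and SOCS3 lost) and the drug difference at 4 h from 5 to 2 (IL6ST, LIFR and CISH lost), and the drug difference of IL6ST at 24 h and the difference between times of JAK1 in 92-1 were lost. That of SOCS1 in MEL202 was lost with no filter or the block, the drug difference of OSMR at 24 h in 5 settings, and the DMSO level of LIFR among lines with the summed strand columns or the block and that of CISH with the block. IDE196 DMSO between times (0) gave 1 with DESeq2 or no filter. Differences among lines gave 3 with limma-voom at 4 h (1 in the main test, and 0 to 1 without 1 library). At 24 h they gave 7 with limma-voom and 5 with all 48 samples (3 in the main test). The 24 h count was 4 without MEL202 FHT-1015 4 h replicate 2 and MP41 DMSO 24 h replicate 2, chosen after seeing the data. Over all genes limma-voom called 1487 of 18395 at 4 h and 9600 at 24 h (253 and 2211 in the main test). All 48 samples in one fit called 3001 of 18871 at 24 h.

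Sign changes touched uncalled values only. STAT3 was 0.0094 in MEL202 at 4 h with library size alone and -0.0039 in MP41 at 4 h with limma-voom. LIFR in MEL202 at 24 h was -0.0142 with all 48 samples, -0.000726 with limma-voom and -0.0097 with no filter. SOCS1 in MP41 at 4 h was 0.0068 with DESeq2, 0.0025 with RLE, 0.0040 with all 48 samples, 0.0673 with limma-voom, 0.0039 with the 6 samples and 0.0037 with the replicate block, and JAK1 at 4 h of IDE196 was -0.0031 with no filter. Without 1 library the values ran, in MEL202 at 4 h, from -0.7945 to 0.0794 for IL6ST, -0.8632 to 0.2424 for LIFR and -0.3419 to 0.1614 for STAT3, and at 24 h from -0.2840 to 0.3296 for LIFR. In MP41 at 4 h they ran from -0.3290 to 0.0519 for LIFR, -0.3353 to 0.0261 for OSMR, -0.1764 to 0.0420 for JAK1, -0.0337 to 0.0482 for STAT3 and -0.0617 to 0.0881 for SOCS1, and at 24 h from -0.0627 to 0.3683 for SOCS1. At 4 h of IDE196 they ran from -0.3508 to 0.0209 for IL6R, -0.1149 to 0.2275 for IL6ST and -0.1011 to 0.0840 for JAK1.

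Over all genes, MEL202 gave 0 to 842 calls at 4 h (108 in the main test) and 2887 to 8824 at 24 h (2984), MP41 34 to 650 (35) and 3352 to 9435 (5617). At 4 h 92-1 gave 2089 to 6686 (4631) with FHT-1015 and 895 to 2828 (2498) with IDE196. DMSO between times in MP41 ran from 330 to 8304 (403), and gave 6835 without DMSO 24 h replicate 3. With the replicate block, CISH in MEL202 at 4 h had an adjusted p of 0.09, STAT3 in MEL202 at 24 h 0.0465 and OSMR in MP41 at 24 h 0.0320, and the DMSO level differed among lines for 7 genes instead of 9; no other call of a member against DMSO changed. No paired analysis was possible for IDE196 because its groups share no replicate numbers with their DMSO. Low counts limit SOCS1 throughout and CISH at 24 h of FHT-1015.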
